A study of Mus musculus with 8 samples.

Results

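Prolactin, growth hormone, insulin and the insulin-like growth factors (IGFs) reach sensory neurons and their glia through a small group of surface receptors, and the transcripts of 5 of these receptors were followed here in mouse dorsal root ganglia. They were taken by gene symbol from the deposited tables: Prlr, Ghr, Insr, Igf1r and Igf2r, 5 of 48315 symbols. Each stood on a single row, and all 5 passed the filter on low values, a mean of at least 1 CPM, where CPM is reads per 1000000 counted reads of a library. The 8 libraries came from ganglia of wild-type SW (Swiss Webster) mice given saline. Of these, 4 were labelled male and 4 female, each numbered 1 to 4. Age is not among the labels. Whether each library is 1 animal or several pooled is not among them either, so the p-values reflect only how these 8 samples vary, and that variation may be technical. Libraries were made with Lexogen's QuantSeq kit, which reads the 3′ end of transcripts, and held between 7497795 and 12155804 counted reads.

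The prolactin receptor and the growth hormone receptor are single-span cytokine receptors. They have no kinase of their own and signal through the kinase JAK2 to STAT5. The insulin receptor and the IGF1 receptor are closely related receptor tyrosine kinases that signal through IRS adaptors to PI3K and AKT, and their subunits can join into hybrid receptors. Igf2r encodes the cation-independent mannose 6-phosphate receptor, which carries lysosomal enzymes and removes IGF2 from the surface without a kinase. In rodent sensory neurons, prolactin signalling is known for sensitising nociceptors, with a stronger role in females, and insulin and IGF1 are known as trophic factors.

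The kinship of each receptor pair can be read in its coding sequence. Shown first is the stretch around the activation loop of the kinase, the part that the receptor phosphorylates on itself, from the GENCODE M21 transcripts with the longest coding part, with capitals at the bases that differ within the pair.
Insr: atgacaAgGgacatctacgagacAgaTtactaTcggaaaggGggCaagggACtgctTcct
Igf1r: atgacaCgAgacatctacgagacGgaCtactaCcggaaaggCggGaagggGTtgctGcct
These 60 bases, positions 3508 to 3567 of the coding part of Insr and 3472 to 3531 of that of Igf1r, were the same at 50 and differed at 10. The matching stretch of the cytokine receptor pair is the first JAK-binding box, just inside the membrane, with capitals again at the differing bases.
Prlr: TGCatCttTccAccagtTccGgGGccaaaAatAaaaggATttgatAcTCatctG
Ghr: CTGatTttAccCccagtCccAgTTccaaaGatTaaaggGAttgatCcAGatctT
Here 36 of 54 bases were the same (positions 781 to 834 of Prlr and 913 to 966 of Ghr). Even between Insr and Igf1r the longest identical run of the coding parts was 19 bases. Over the whole transcripts it was 43 bases, a run made of only 2 different bases.

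On the GRCm38 build, Prlr (ENSMUSG00000005268.20) lies on chromosome 15 at 10177238 to 10349180 (plus strand) and Ghr (ENSMUSG00000055737.12) on the same chromosome at 3317760 to 3583492 (minus strand). Insr (ENSMUSG00000005534.10) lies on chromosome 8 at 3122061 to 3279617 (minus strand), Igf1r (ENSMUSG00000005533.10) on chromosome 7 at 67952827 to 68233668 (plus strand), and Igf2r (ENSMUSG00000023830.13 in the tables, version 14 of that gene in the annotation) on chromosome 17 at 12682406 to 12769664 (minus strand). The annotation gives Prlr 7 protein-coding transcripts with 7 different 3′ ends, Ghr 5 with 5, Insr 2 with 2, and Igf1r and Igf2r 1 each. The deposited values are per gene, so the long and short forms of the prolactin receptor were not told apart. The strand setting of the counting is not given in the sources used here, so Igf2r could not be separated from Airn, the antisense non-coding RNA that silences its paternal copy; Airn stood between 0.0901 and 2.18 CPM, against at least 21.4 CPM for Igf2r.

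The sex-specific transcripts bear on every comparison below. Xist, the RNA that silences an X chromosome in female cells, was at 294 CPM in the library labelled male 1. In the one labelled female 1 it reached 0.270 CPM, whereas it was 1.63 to 5.44 CPM in male 2 to 4 and 162 to 349 CPM in female 2 to 4. Ddx3y, a Y-linked helicase gene, was at 0.855 CPM in male 1 and at 102 CPM in female 1. Both replicate 1 libraries are therefore called by their labels only, and the comparisons of the receptors, of the partner lists and of most named partner genes are also given without them. All 7 markers of sensory neurons looked at (Avil, Prph, Tubb3, Isl1, Scn10a, Calca and Nefh) were detected in every library, with a summed level of 5457 to 9598 CPM. All 5 skeletal muscle markers (Acta1, Ckm, Myh4, Myh1 and Tnnt3) were detected in every library too, summing to 720 to 1392 CPM in the male group and to 320 to 1588 CPM in the female group. Muscle, fat and fibroblasts are known to carry several of these receptors, so in bulk ganglia fewer cells of a type and less RNA per cell cannot be told apart.

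The prolactin receptor transcript was scarce and did not separate the libraries by label. Male 1 to 4 held 2.81, 2.72, 2.06 and 1.64 CPM of Prlr, which are 23, 25, 21 and 16 reads. Female 1 to 4 held 1.58, 1.15, 3.10 and 2.001 CPM, from 17.5, 14, 24.6 and 15 reads. Its highest and its lowest value both came from libraries labelled female, female 3 and female 2, and the groups overlapped. The exact Poisson 95% interval ran from 1.998 to 4.59 CPM in female 3 and from 0.630 to 1.93 CPM in female 2, for counting error only. Over the 8 libraries its coefficient of variation was 32.1%, where counting alone gives 23.2%. By label the means were 2.31 ± 0.556 CPM in male and 1.96 ± 0.837 CPM in female libraries (SD, n = 4). The log2 difference was −0.19 (SE 0.27; limma, adjusted p = 0.732; 95% interval −0.78 to 0.40). Without the replicate 1 libraries the difference was −0.06 (limma, adjusted p = 0.981; interval −0.83 to 0.71). With quantile normalization its sign turned, to 0.11. Reads over the 3′ part of Prlr could also be given to Gm21973, an overlapping gene on the same strand at 10325380 to 10373749. Gm21973 held 0.134 CPM in female 1 and 0.0505 CPM in female 3, the 2 libraries in which Prlr had a fractional read number, and 0 in the other 6. With both genes added together, an alternative chosen after seeing the data, the log2 difference was −0.16.

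The growth hormone receptor transcript was more abundant in CPM than that of Prlr and varied more between libraries of the same label than between labels. Ghr stood at 34.1, 12.3, 19.5 and 31.0 CPM in male 1 to 4. Female 1 to 4 held 18.4, 19.6, 27.3 and 37.6 CPM. The lowest library was male 2 and the highest female 4, a 3.06-fold range, and each label held both low and high libraries. The coefficient of variation was 35.4%, where counting alone gives 6.89%. Group means were 24.2 ± 10.1 CPM (male) and 25.7 ± 8.86 CPM (female) (SD, n = 4), with a log2 difference of 0.13 (SE 0.34; limma, adjusted p = 0.860; interval −0.62 to 0.88). Leaving out the replicate 1 libraries gave 0.46 (limma, adjusted p = 0.946; interval −0.41 to 1.32). The sign rested on single libraries: it was −0.15 without male 2 and −0.07 without female 4. Male 2 was also the library with transcripts of central nervous system cells. The summed level of 9 such markers, of which 7 were detected in every library, was 311 CPM there and 10.4 to 22.2 CPM in the others, and Chat was at 0 in male 2. Its part in the low Ghr value was not tested.

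**Figure D1:**
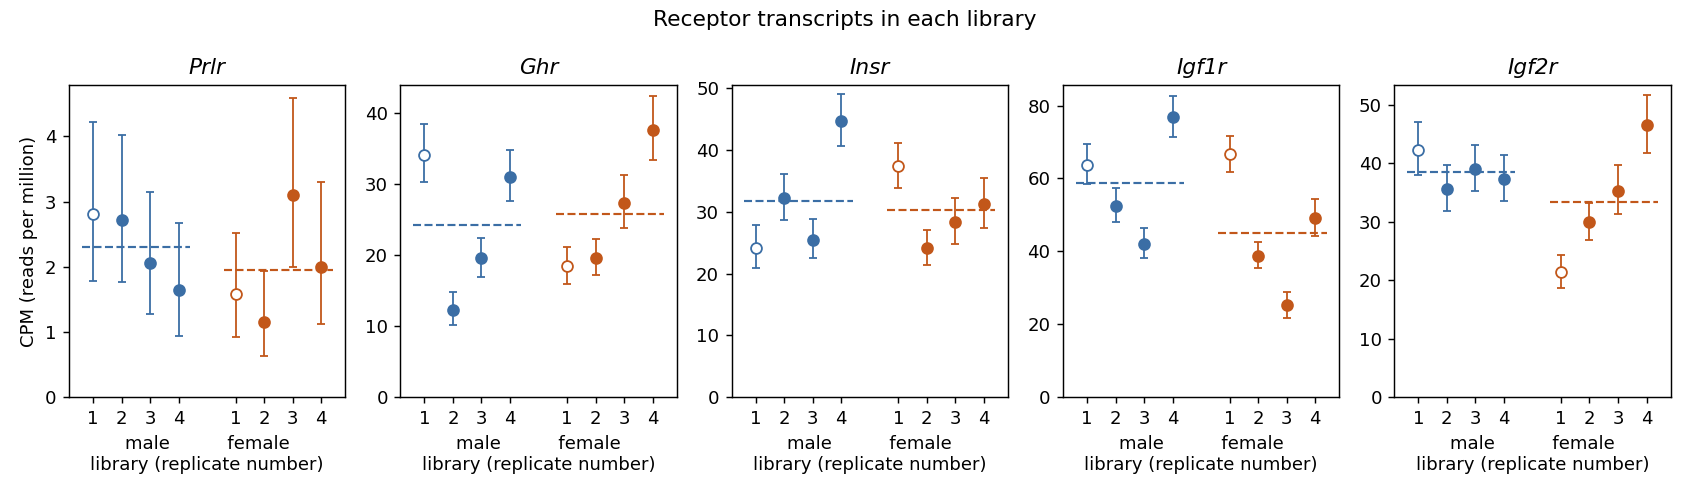
CPM of each receptor transcript (vertical axes from 0, a scale of its own for each gene) in the 4 libraries labelled male (blue) and the 4 labelled female (orange); bars are exact Poisson 95% intervals for counting error, dashed lines are label means, and open circles are the replicate 1 libraries whose sex transcripts did not match their labels. For each of the 5 genes the labels overlap, and Prlr, between 1.15 and 3.10 CPM, has wide counting intervals relative to its level.

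The insulin receptor transcript had the smallest fold range of the 4 abundant ones. By coefficient of variation Igf2r was steadier, at 21.4% against 23.2% for Insr. Insr stood at 24.2, 32.3, 25.5 and 44.7 CPM in male 1 to 4. Female 1 to 4 held 37.4, 24.1, 28.4 and 31.2 CPM. Male 4 was highest, and the range was 1.86-fold. Means by label were close, 31.7 ± 9.39 CPM and 30.3 ± 5.58 CPM for male and female (SD, n = 4). Its log2 difference was −0.04 (SE 0.24; limma, adjusted p = 0.944; interval −0.57 to 0.49), and −0.25 without the replicate 1 libraries (limma, adjusted p = 0.946; interval −0.87 to 0.36). The sign of so small a difference turned under median ratio scaling (0.15), which centres all genes, and without male 4 (0.14).

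Transcripts of the IGF1 receptor were the most abundant in CPM and had the most negative difference among the receptors, without passing the test. Igf1r stood at 63.8, 52.5, 42.2 and 76.9 CPM in male 1 to 4. Female 1 to 4 held 66.6, 38.8, 25.2 and 49.1 CPM. Female 3 and female 2 were the lowest libraries, but female 1 exceeded 3 of the 4 male ones, so the labels overlapped. Group means were 58.8 ± 14.9 CPM (male) and 44.9 ± 17.5 CPM (female) (SD, n = 4), a log2 difference of −0.43 (SE 0.30; limma, adjusted p = 0.503; interval −1.09 to 0.23). It was −0.59 without the replicate 1 libraries (limma, adjusted p = 0.946; interval −1.34 to 0.15), and −0.24 under median ratio scaling. Igf1r was the receptor whose sign held under each alternative run. The lowest library, female 3, also had the lowest summed level of skeletal muscle markers, 320 CPM against at least 720 CPM in the other 7. Male 4, with the next lowest muscle sum (720 CPM), held the highest Igf1r. Female 3 had the lowest sum of 5 myelinating Schwann cell markers too (8439 CPM), and the highest sensory neuron sum (9598 CPM). The part of these cell types in the low Igf1r value was not tested. Without female 3 the difference was −0.19.

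Igf2r, the sorting receptor, was level in the libraries labelled male and spread in those labelled female. Male 1 to 4 held 42.3, 35.6, 39.0 and 37.3 CPM. Female 1 to 4 held 21.4, 29.9, 35.3 and 46.5 CPM. The female values enclosed the male ones on both sides, with a mean of 33.3 ± 10.6 CPM against 38.6 ± 2.86 CPM (SD, n = 4). The log2 difference was −0.26 (SE 0.24; limma, adjusted p = 0.594; interval −0.78 to 0.27). It shrank to −0.03 without the replicate 1 libraries (limma, adjusted p = 0.989; interval −0.58 to 0.53) and to −0.07 without female 1 alone, the lowest library. Female 1 and male 1, the highest of the male label, are the libraries whose sex transcripts did not match, so the spread is described by label only. Without both of them the means were 37.3 ± 1.73 CPM (male) and 37.2 ± 8.51 CPM (female) (SD, n = 3).

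In all, 0 of the 5 receptors passed limma at an adjusted p under 0.05, where 0% of the 14505 tested genes passed. An unadjusted p under 0.05 was reached by 0 of the 5 and by 11% of all tested genes. None of the 5 had labels that did not overlap, which 4.23% of all tested genes had. Without the replicate 1 libraries the receptors called were again 0, against 0.0414% of all genes, and 0 had separate labels, against 7.59%. When libraries were weighted by how closely they followed the fit by label (array weights), 0 of the 5 passed, against 30.1% of all genes. These weights kept the replicate 1 libraries, at 1.98 for male 1 and 0.61 for female 1. The highest weight was that of female 4 (3.13) and the lowest that of female 2 (0.312). A missed threshold does not show equal levels: the intervals above still allow differences of more than 0.5 on the log2 scale in at least 1 direction for each gene.

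**Figure D2:**
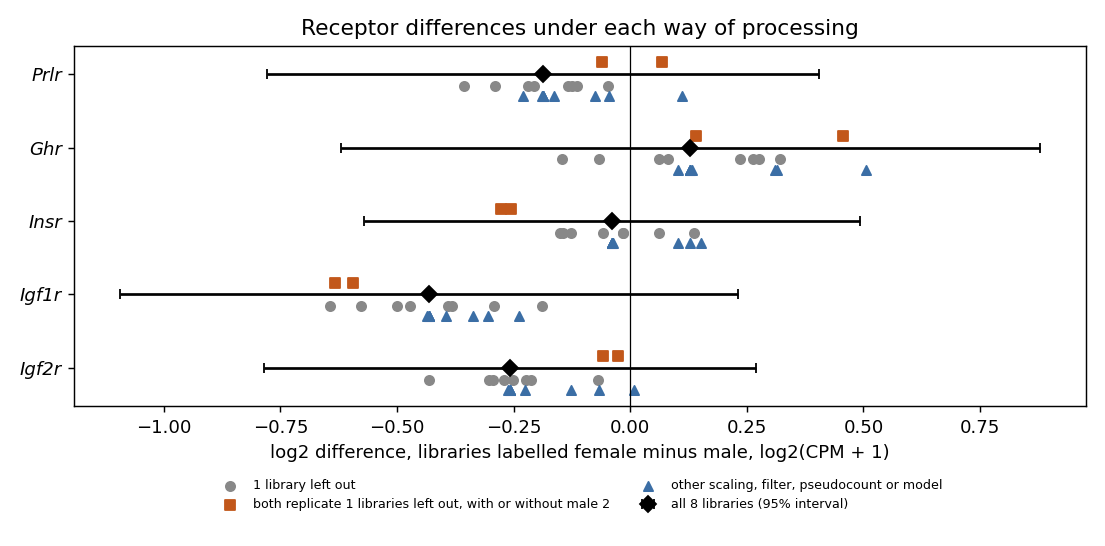
Log2 difference of each receptor (libraries labelled female minus male, on log2(CPM + 1)) with all 8 libraries (black diamond with the limma 95% interval), with 1 library left out (grey circles), with the replicate 1 libraries left out (orange squares) and under the other alternatives (blue triangles). Every black interval includes 0; Igf1r alone keeps its sign throughout, while Prlr turns positive under quantile normalization, Insr under both scalings and Ghr negative without male 2.

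The order of the 5 receptors in CPM changed when levels were divided by transcript length. A 3′ end library should not need that step. In CPM, to which each transcript should contribute about alike in a 3′ end library, the mean levels over the 8 libraries were 51.9 ± 16.8 CPM for Igf1r, 35.9 ± 7.69 CPM for Igf2r, 31.0 ± 7.19 CPM for Insr, 24.97 ± 8.84 CPM for Ghr and 2.13 ± 0.684 CPM for Prlr (SD, n = 8). Igf1r stood above Igf2r in 7 of 8 libraries, all but female 3. Igf2r and Insr, and likewise Insr and Ghr, were in that order in 6 of 8 libraries, with differences of means (4.94 and 5.999 CPM) smaller than the spread of either gene. Divided by the length of the transcript with the longest coding part, the order of the levels became Ghr (5.98 ± 2.12 CPM per kb), Igf1r (4.55 ± 1.47), Igf2r (4.04 ± 0.866), Insr (3.31 ± 0.769) and Prlr (0.215 ± 0.0691 CPM per kb). No 2 neighbours among the first 4 of that order were further apart than their spread. Prlr was last in 8 of 8 libraries on both scales. Among the mean CPM of all tested genes, Prlr lay at the 12.1 percentile, and the others lay between the 61.6 percentile (Ghr) and the 76.6 percentile (Igf1r).

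Because both kinases are read in the same library, the ratio of their CPM does not depend on the scale of that library. Igf1r exceeded Insr 2.64, 1.63, 1.65 and 1.72-fold in CPM in male 1 to 4. The ratio was 1.78, 1.61, 0.889 and 1.57 in female 1 to 4. Male 1 stood above the rest and female 3 was the only library with more Insr than Igf1r reads. For the log2 ratios 1 CPM was added to both genes, which leaves a slight dependence on scale. Mean log2 ratios were 0.88 ± 0.32 (male) and 0.49 ± 0.44 (female) (SD, n = 4), a difference of −0.39 (exact two-sided permutation test over 70 assignments, p = 0.229). Without male 1 it was −0.23 (exact permutation p = 0.629). Without female 1, a comparison that keeps male 1, it was −0.50 and the labels no longer overlapped. The exact permutation p was then 0.0286, the smallest that 4 against 3 allows. Without both replicate 1 libraries it was −0.34, again with separate labels, at the smallest exact permutation p that 3 against 3 allows, 0.1. In that comparison the nearest libraries, male 2 and female 2, were 0.68 and 0.67 on the log2 scale, each with a counting error of about 0.11, and female 3 held most of the difference. With all libraries but female 3 it was −0.17.

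The hormones themselves were absent or scarce in the ganglia, apart from the IGFs. Prl, Gh and Ins2, the genes of prolactin, growth hormone and the main mouse insulin, had 0 reads in all 8 libraries, where 3 reads would correspond to 0.247 to 0.40 CPM, and Ins1 had at most 2 reads. Igf1, a growth factor made in many tissues under growth hormone, stood at 38.5, 34.0, 19.2 and 43.1 CPM in male 1 to 4. Female 1 to 4 held 34.3, 26.8, 64.1 and 80.0 CPM. Female 4 and female 3 were highest, the other female libraries fell within the male range, and the log2 difference was 0.52 (SE 0.37; limma, adjusted p = 0.506). Without the replicate 1 libraries it was 0.74 (limma, adjusted p = 0.946). With array weights, which keep those libraries, it was 1.01 and passed (limma, adjusted p = 0.0212), where 30.1% of all tested genes passed. Igf2, the fetal growth factor that Igf2r removes, stood at 103, 38.5, 19.4 and 18.6 CPM in male 1 to 4 and 8.02, 62.9, 25.6 and 34.7 CPM in female 1 to 4. Its extremes were the replicate 1 libraries, and its log2 difference went from −0.40 with all 8 libraries to 0.65 without them (limma, adjusted p of 0.759 and 0.946).

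**Figure D3:**
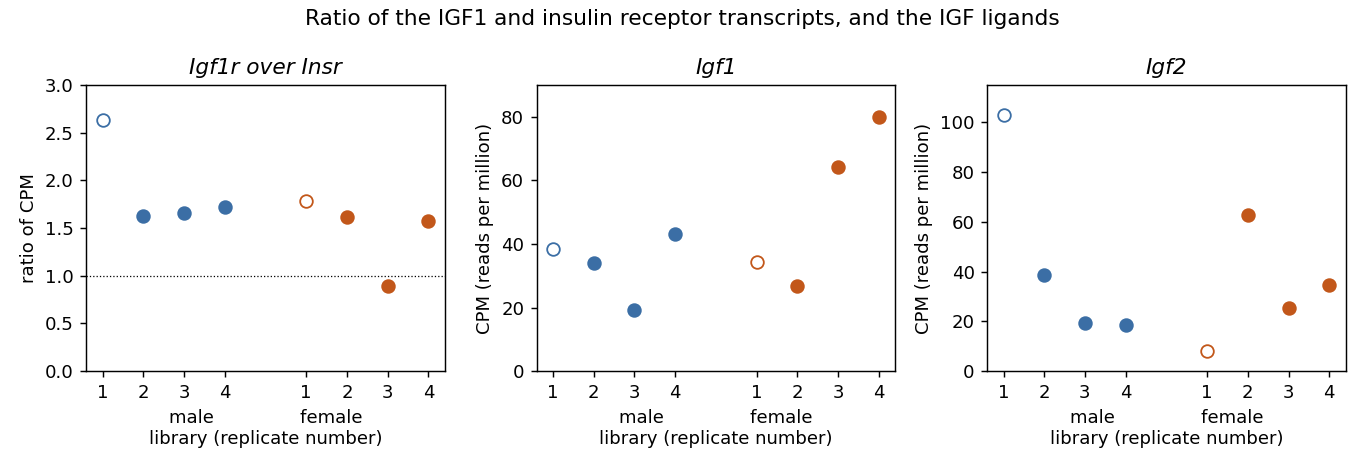
Ratio of Igf1r to Insr CPM (left; dotted line at equal levels) and CPM of the ligand genes Igf1 (middle) and Igf2 (right) in each library, by label and replicate number, with open circles for the replicate 1 libraries; all vertical axes start at 0. The ratio is between 1.57 and 1.78 in 6 libraries, 2.64 in male 1 and 0.889 in female 3, and Igf2 is highest in male 1 (103 CPM) and lowest in female 1 (8.02 CPM).

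The partners of the receptors were described over 6 lists of 59 genes, of which 50 were tested and 0 passed limma, as for all tested genes (0%). Of the 50, 39 had lower values by female label (78%, where 67.5% of all tested genes did), with a median log2 difference of −0.16 beside −0.18 over all genes. Median ratio scaling moved the median of all genes to −0.02, and then 24 of 50 (48%) were lower, beside 51.5% of all genes. Labels overlapped for all 50, where 4.23% of all tested genes had separate labels. The counts depended on female 2: without it 10 of 50 passed, 2 higher and 8 lower by female label, where 9.33% of all tested genes passed. That count keeps male 1 and female 1. With any other single library left out 0 of the 50 passed. Calls made without female 2, here and below, rest on that choice of library and are descriptions only. Without the replicate 1 libraries 0 of the 50 passed (limma, adjusted p of at least 0.946) and 0 had an unadjusted p under 0.05. Then 35 of the 50 were lower, beside 9338 of all 14505 tested genes, with a median of −0.16 beside −0.12 over all genes.

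Markers of several cell types followed female 2 and the first 3 male libraries. The summed level of 5 satellite glia markers was 932 to 1234 CPM in male 1 to 3 and female 2, and 474 to 660 CPM in male 4 and the other 3 female libraries. The 5 fibroblast markers summed to 1479 to 2278 CPM in the first 4 of these libraries and to 589 to 1366 CPM in the rest. The 5 macrophage markers ran the other way, at 133 to 222 CPM against 231 to 362 CPM. All markers of these 3 lists were detected in every library. Their part in the differences of the partner genes was not tested.

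Among the IGF binding proteins and their proteases, which hold IGFs in the extracellular space and release them, 6 of 8 tested genes were lower by female label (75%, beside 67.5% of all genes) and 0 passed. Under median ratio scaling 4 of 8 were lower, and without the replicate 1 libraries 3 of 8, where the list's median of −0.14 became 0.06. Igfbp2 had the smallest p, with 78.0 ± 28.7 CPM (male) and 151 ± 74.3 CPM (female) (SD, n = 4) and a log2 difference of 0.88 (SE 0.37; limma, adjusted p = 0.446). It was highest in female 3, at 252 CPM, and lowest in male 3, at 47.0 CPM. Igfbp5, the most abundant of the list, had 207 ± 44.3 and 200 ± 79.5 CPM (SD, n = 4; limma, adjusted p = 0.862). Igfbp4 had 65.9 ± 17.2 and 48.5 ± 27.5 CPM, with female 2 (89.4 CPM) far above the other 3 female libraries. Without female 2, Igfbp2 (1.18) and Igfbp4 (−0.87) passed limma, with adjusted p of 0.0421 and 0.0468. With replicate 1 left out instead, Igfbp2 differed by 0.93, Igfbp4 by −0.24 and Igfbp5 by 0.11 in place of −0.11, and none passed.

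The JAK-STAT list, the arm used by the prolactin and growth hormone receptors, had 8 of 10 tested genes lower by female label (80%, beside 67.5% of all genes; 7 of 10 under median ratio scaling), with a median log2 difference of −0.49 that was −0.29 under median ratio scaling and −0.39 under quantile normalization; 0 passed. Jak2, the kinase bound by both receptors, stood at 24.2, 34.6, 27.2 and 20.2 CPM in male 1 to 4 and 12.4, 29.5, 6.93 and 12.5 CPM in female 1 to 4. Female 2 lay among the male libraries and the other 3 below all of them (log2 difference −0.90, SE 0.36; limma, adjusted p = 0.446). Socs1, a feedback inhibitor of JAK kinases, had 4.30 ± 1.30 and 2.23 ± 2.39 CPM (SD, n = 4), a log2 difference of −0.93 with the same adjusted p (limma, 0.446). Stat3 and the phosphatase gene Ptpn11, the most abundant of the list, had adjusted p of 0.901 and 0.458 in limma. Without female 2, 5 of the 10 passed, all lower by female label: Jak2, Socs1, Stat5a, Stat5b and the JAK2-binding adaptor gene Sh2b1 (limma, adjusted p from 0.0364 to 0.0470), where 9.33% of all tested genes passed. Leaving out any other single library gave 0 of the 10. Of the 10, 0 passed without the replicate 1 libraries, and 8 of 10 were again lower, with a median of −0.38 beside −0.12 over all genes. Jak2 then differed by −0.90 and Socs1 by −0.92, and all 5 genes had an adjusted p of 0.946 in limma. Stat5a, Stat5b and Sh2b1 were named after their values were seen.

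**Figure D4:**
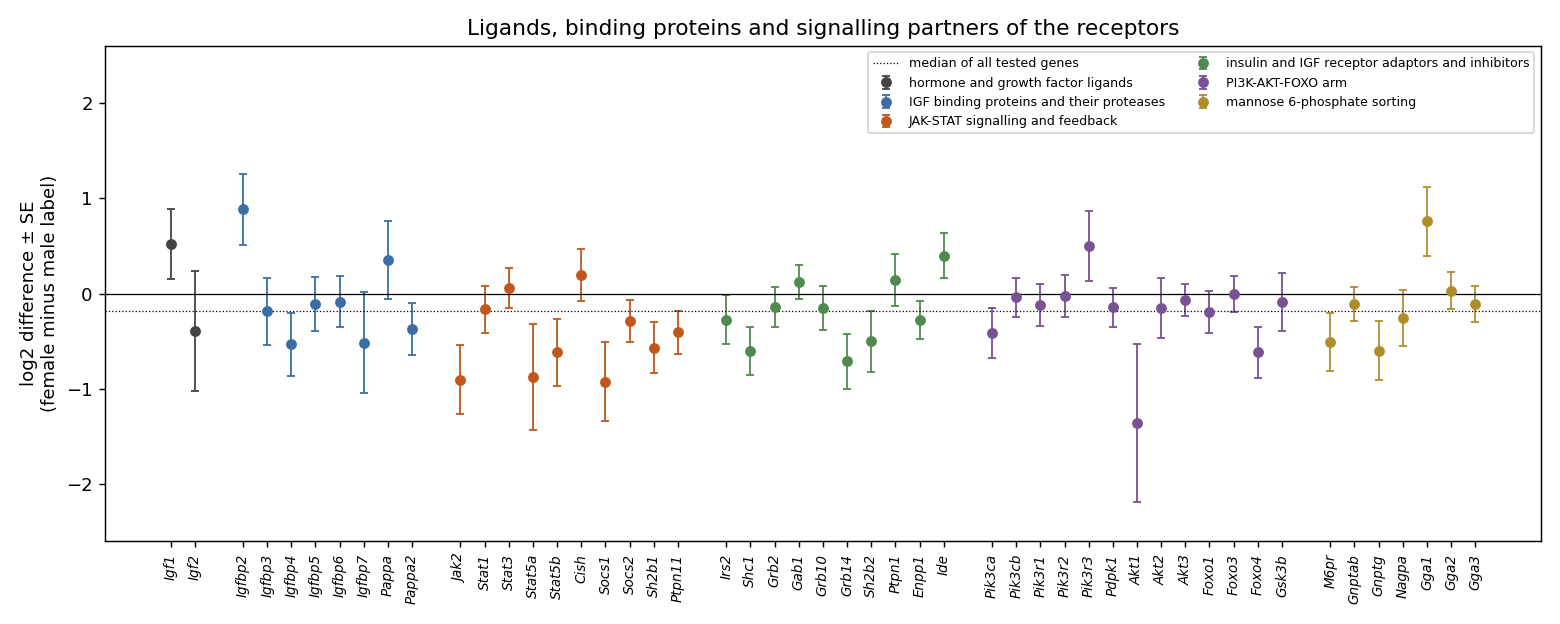
Log2 difference (libraries labelled female minus male, log2(CPM + 1)) with its limma SE for each of the 50 tested ligand, binding protein and signalling genes, coloured by list; the solid line is 0 and the dotted line the median of all tested genes, −0.18. Most points lie below 0 on the deposited scale, 39 of 50, a count that is 24 of 50 under median ratio scaling; Igfbp2 and Gga1 have the most positive values and Akt1 the most negative.

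Downstream of the insulin and IGF1 receptors, 7 of 10 tested adaptors and inhibitors and 12 of 13 genes of the PI3K-AKT-FOXO arm were lower by female label (70% and 92.3%, beside 67.5% of all genes), and 0 of either passed. Under median ratio scaling 5 of 10 and 4 of 13 were lower, 50% and 30.8% beside 51.5% of all genes. Without the replicate 1 libraries, on the deposited scale, 8 of 10 and 12 of 13 were lower, with medians of −0.16 and −0.23. Of all 14505 tested genes 9338 were then lower, with a median of −0.12. The medians of both lists were small, −0.21 and −0.12, and under median ratio scaling they were −0.03 and 0.08, the second with a change of sign. Shc1, an adaptor gene, had 30.9 ± 4.601 CPM (male) and 20.7 ± 7.05 CPM (female) (SD, n = 4), a log2 difference of −0.60 (SE 0.25; limma, adjusted p = 0.446). Female 2, at 30.0 CPM, lay within the male range of 25.98 to 36.3 CPM, and the other 3 female libraries below it. Grb14, an inhibitor that binds the insulin receptor, had a log2 difference of −0.71 and the transcription factor gene Foxo4 one of −0.62 (limma, adjusted p of 0.446 each). Without female 2 Grb14 passed, at −0.94 (limma, adjusted p = 0.0428). Leaving out replicate 1, Shc1 differed by −0.58, Grb14 by −0.45 and Foxo4 by −0.43, each with an adjusted p of 0.946 in limma. The adaptor genes Grb2 and Gab1, the PI3K regulatory subunit gene Pik3r1 and the kinase gene Gsk3b, the most abundant members, had adjusted p of 0.749, 0.738, 0.80 and 0.90 in limma. Irs1, the first insulin receptor substrate, stayed under the filter at no more than 1.76 CPM, and Insrr, the third member of the insulin receptor family, at no more than 0.611 CPM. Akt1, a central kinase of the arm, stood at 24.0, 27.0, 9.31 and 1.85 CPM in male 1 to 4 and 2.16, 22.1, 1.76 and 1.33 CPM in female 1 to 4. Male 1 to 3 and female 2 were the high libraries, and the same 4 lay on one side of the first principal component of all tested genes, which held 59.3% of the variance. They were also the libraries with the higher sums of satellite glia and fibroblast markers given above. Its log2 difference of −1.36 did not pass (limma, adjusted p = 0.472). It passed without female 2, at −2.13 (limma, adjusted p = 0.0495), and with array weights, at −2.59 (limma, adjusted p = 0.00862). Both fits keep the replicate 1 libraries, and 9.33% and 30.1% of all tested genes passed in them. With array weights 15 of the 50 tested partner genes passed. The Akt1 difference was −0.82 without replicate 1 (limma, adjusted p = 0.946).

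Of the genes that make and read the mannose 6-phosphate tag, the lysosomal signal that Igf2r binds, 5 of 7 were lower by female label (71.4%, beside 67.5% of all genes; 3 of 7 under median ratio scaling and 4 of 7 without the replicate 1 libraries), with a median of −0.11 that was 0.08 under median ratio scaling and 0.02 under quantile normalization; 0 passed. M6pr, the smaller mannose 6-phosphate receptor, had 65.0 ± 16.97 and 47.4 ± 21.1 CPM (SD, n = 4; limma, adjusted p = 0.470). Gga1, whose product sorts these receptors at the Golgi, had 33.0 ± 12.8 and 58.2 ± 26.2 CPM and a log2 difference of 0.76. It was highest in female 1, at 92.2 CPM, and its difference was 0.31 without the replicate 1 libraries (limma, adjusted p = 0.446 and 0.946). Without female 2 it was 1.06 and passed (limma, adjusted p = 0.0480). Gnptg, a subunit gene of the enzyme that builds the tag, differed by −0.60 and the most abundant gene Gga2 by 0.03 (limma, adjusted p of 0.453 and 0.946). M6pr differed by −0.17, Gnptg by −0.35 and Gga2 by 0.01 once replicate 1 was left out, and none passed.

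The genes whose log2(CPM + 1) followed each receptor most closely over the 8 libraries were taken from those with a mean of at least 10 CPM, 8596 or 8597 genes for each receptor, by Pearson's r. As 8 points shared library effects and the 3 best of these genes were kept, the r values are descriptions only. Igf1r was followed by Zfp354c (r = 0.994), Ccnt1 (0.987) and Tmem150c (0.983). Ccnt1, a cyclin of transcription elongation, was likewise lowest in female 3 (22.2 CPM) and highest in male 4 (72.5 CPM). Insr was followed by Frmd4a (0.966), Fam81a (0.966) and Sdad1 (0.963), each highest in male 4. Igf2r was followed by Cxcr4, a chemokine receptor gene (0.959), Kctd8 (0.956) and Bbs7 (0.949), and Ghr by Dnajc13 (0.919), Slc35f5 (0.912) and Gna14 (0.910). The closest to Prlr were Arhgef18 (0.890), Plcl1 (0.860) and Gm28437 (0.857). Arhgef18 ranged only from 19.1 to 22.9 CPM, a narrow range.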

How the data were processed

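Per the labels' protocols, TRIzol was used to isolate RNA, RiboCop to remove ribosomal RNA and the QuantSeq 3′ kit to build libraries. Tools listed, with no order, per the submitters' processing notes are Cufflinks 2.2.1, Bowtie2 2.2.9, TopHat2 2.1.1 and FastQC 0.11.5, with mm10 and GRCm38.p4 as builds. Which counter, strand setting and annotation were used is not given in the sources used here. Values named TPM were deposited by the authors, 1 column per library, that behave as CPM: each column sums to 1000000, and 98.3% to 98.6% of the values below 200 reads were within 0.05 of a whole multiple of 1 step shared by all genes. That step gave the read numbers. As some values stayed fractional, the planned count test was not run. Each library was scaled on its own, so the table of each sex could be compared with the other.

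A few genes of the lists are not reported here. Rows sharing a symbol (110 symbols) were summed. The 14505 genes averaging 1 CPM or more were fitted as log2(CPM + 1) in limma 3.58.1 (R 4.3.3) with a variance trend, two-sided, and p-values were adjusted by Benjamini and Hochberg's method across all 14505. The script was tested on simulated data. Such differences understate low genes. Intervals on CPM are exact Poisson intervals and, like the floor of 3 reads, cover counting error only. The Igf1r to Insr ratio was the only one tested, by exact permutation. The receptors, lists and alternatives were chosen with earlier results of these data known. In each list, genes past the threshold or else the 2 with the smallest p, and the 2 most abundant, were named. Sequences and coordinates are from GENCODE M21 (GRCm38), matched by gene identifier without its version. No pair among the 28 library pairs had identical values.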

Additional observations from a re-analysis of the deposited data

Results flagged for a closer look

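In 5 of 54 groups of 4 libraries examined (5 receptors, 21 named partner genes and the Igf1r to Insr ratio, by label), 1 library stood far from the other 3; chance gives about 1 in 20. The log2 ratio of Igf1r to Insr was 1.36 in male 1 and 0.68 to 0.77 in the other male libraries. The other cases were all in female 2: Igfbp4 at 89.4 CPM against 29.9 to 39.3 CPM, Ptpn11 at 78.7 CPM against 50.0 to 54.2 CPM, Akt1 at 22.1 CPM against 1.33 to 2.16 CPM and Gnptg at 68.9 CPM against 32.5 to 35.5 CPM in the other female libraries. None of the 5 receptor genes themselves had a library that stood apart in this way.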

How the results depend on the processing

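No receptor passed the threshold under any alternative run, and 98 of 109 alternative values of the receptor differences and the ratio kept their sign and side of the threshold. The filters, the variance trend and the replicate block cannot move a receptor difference. The sign was fixed in advance in those alternatives, which are counted among the 98. The ratio could not pass with the replicate block, where its value was fixed as well. It could not pass without both replicate 1 libraries either, with male 2 kept or left out, and there only its sign could change. The value that crossed the threshold was the ratio without female 1 (exact permutation p = 0.0286). Signs turned for Prlr under quantile normalization (0.11) and without replicate 1 and male 2 (0.0684). They turned for Ghr without male 2 (−0.15) or female 4 (−0.07). Insr turned under median ratio scaling (0.15), quantile normalization (0.10), array weights (0.13) and without male 4 (0.14) or female 2 (0.06), and Igf2r under array weights (0.0074). The cause was not tested. With 1 library left out the differences ran from −0.36 to −0.05 for Prlr, −0.15 to 0.32 for Ghr, −0.15 to 0.14 for Insr, −0.64 to −0.19 for Igf1r and −0.43 to −0.07 for Igf2r, and from −0.50 to −0.17 for the ratio. The count of all genes passing was 0 to 1354 with 1 library left out (1354 without female 2 and 0 in each other case), 4363 with array weights, 6 without replicate 1 and 4 without male 2 as well. Of the 50 tested partner genes, 0 to 10 passed with 1 library left out. The 10 were without female 2, where 9.33% of all tested genes passed, and each other single omission gave 0. With array weights 15 of the 50 passed, of which 3 were higher, where 30.1% of all tested genes passed. With the replicate number as a block 0 genes passed and the Igf1r difference stayed −0.43 (limma, adjusted p = 0.296). Same-numbered libraries did not all deviate together (correlations −0.31, 0.70, −0.15 and 0.44 for replicates 1 to 4). Whether the numbers pair the libraries cannot be told from these values. Depth limits Prlr most, with 14 to 25 reads a library.
The planned count test (edgeR) was not run because some recovered read numbers were fractional.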
